A study of Homo sapiens with 12 samples.

Results

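Metallothioneins are small proteins in which clusters of cysteines hold zinc and copper ions, and they bind cadmium when a cell meets it. They buffer the free zinc of a cell and also take up reactive oxygen. Their genes are switched on by MTF1, a zinc-finger transcription factor that senses zinc and binds short metal response elements in their promoters, and several of them also answer to glucocorticoids. Here 6 metallothionein genes (MT2A, MT1E, MT1X, MT1G, MT1M and MT1F) and MTF1 were followed in proliferating and senescent fibroblasts. These 7 genes were chosen by symbol from the 38716 symbols of the deposited tables, of which 16451 had at least 1 read in a coding sequence (CDS). All 7 were among the latter.

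The cells were IMR90, a widely used line of fibroblasts from human lung, either still dividing (Pro) or passaged until they no longer divided, the state of replicative senescence (Sen). Nothing else was done to either group, as far as the labels say. From each of 3 lysates per state came 1 Ribo-seq library, which holds the pieces of mRNA that ribosomes protect from digestion (ribosome-protected fragments, RPF), and 1 poly(A) RNA-seq library, 12 libraries in all. The culture protocol names a pair of isolates of the line and does not assign them to samples, and the RNA-seq file names of the Pro group hold letters like those of DMSO, a solvent that no label mentions, so neither isolate nor solvent can be told apart from the state.

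The mRNA level summed RNA-seq reads over both UTRs and the CDS, and the RPF level took Ribo-seq reads in the CDS. Both are given as CPM, the reads of a gene set against the size of its library after TMM scaling within a library type. RNA-seq libraries held 7902427 to 14144455 such reads. Ribo-seq libraries held 54421 to 1718521, and 2 of them, Pro 1 with 54421 and Sen 2 with 54708, were so shallow that a single metallothionein gene other than MT2A had at most 3.33 reads in them. The Ribo-seq libraries also differed in the share of their reads that lay in the CDS, which was 34.4%, 84.4% and 88.8% in Pro 1 to 3 and 77.8%, 15.0% and 54.7% in Sen 1 to 3, and the part of this in the RPF and TE results was not tested. The labels held up against marker genes. All 10 fibroblast markers were above 1 CPM in mRNA, with summed levels of 31680 to 35640 CPM in Pro and 30120 to 34850 CPM in Sen. Of 10 markers of epithelial, endothelial, blood and liver cells, CD68, which fibroblasts also transcribe, was the 1 above 1 CPM, CDH5 had 0 reads, and the summed level ran from 20.2 to 23.25 CPM in Pro and from 33.9 to 37.4 CPM in Sen, a part in the results below that was not tested. In footprints these markers summed to 117.4, 12.9 and 24.0 CPM in Pro and to 37.1, 68.4 and 28.4 CPM in Sen, highest in the shallow libraries, where ALB (albumin) had 6 reads in Pro 1 and 2 in Sen 2, CD68 1 in each and CDH5 1 in Sen 2. In mRNA the proliferation gene MKI67 (log2 fold change -2.30) and LMNB1, which encodes lamin B1 (-2.84), fell, while CDKN1A (1.60) and CDKN2A (0.62), which encode the cell cycle inhibitors p21 and p16, rose.

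By the GENCODE annotation lifted to GRCh37, the 6 metallothionein genes lie close together on chromosome 16, on the plus strand except MT1G. MT2A spans 56642496 to 56643409, MT1E 56659387 to 56661024, MT1M 56666571 to 56667893, MT1F 56691643 to 56694610, MT1G 56700642 to 56701977 and MT1X 56716382 to 56718108. MTF1 lies on chromosome 1, from 38275246 to 38325264 on the minus strand. The build behind the deposited tables is not given in the sources used here, and genes were matched by symbol alone. Each metallothionein coding sequence was 186 bases long with its stop codon, and 20 of its 61 codons were for cysteine, against 21 of 753 in MTF1. Any 2 of the 6 coding sequences were identical at 88.7% (MT1F and MT1X) to 95.2% (MT1G and MT2A) of their bases.

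Such likeness decides how well short reads can be told apart, and 2 stretches of the coding sequences, each about as long as a footprint, show its extremes. From base 63 to base 92, counted from the A of the start codon, all 6 genes have the same 30 bases:
MT1E, MT1F, MT1G, MT1M, MT1X and MT2A: caaagagtgcaaatgcacctcctgcaagaa
From base 20 to base 49 they differ the most. Capitals mark the 14 positions at which not all 6 genes have the same base:
MT1E: gCGcCAcTgGtgGctcctgCAcGtgCGcCG
MT1F: gCGcCGcTgGtgTctcctgCAcCtgCGcTG
MT1G: gTGcCGcTgGtgTctcctgCAcCtgCGcCA
MT1M: gCAcCAcTgGtgTctcctgCGcCtgCAcCG
MT1X: gCTcGCcTgTtgGctcctgTGcCtgTGcCG
MT2A: gCGcCGcCgGtgActcctgCAcCtgCGcCG

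Of the 157 windows of 30 bases in each coding sequence, 91 of MT1G (58%), 82 of MT1E (52.2%), 82 of MT1X (52.2%), 57 of MT2A (36.3%), 49 of MT1M (31.2%) and 46 of MT1F (29.3%) occur without a mismatch in another metallothionein transcript, pseudogenes of the family included. Some deposited values are simple fractions and not whole numbers, as reads divided among several genes would give, though the counting rule is not given in the sources used here. Of the 36 CDS values above 0 of the 6 genes in RNA-seq, 29 (80.6%) were not whole, and of 33 in Ribo-seq 27 (81.8%), by a tolerance of 1e-06. Over all genes the share was 12.6% to 13.5% in RNA-seq and 12.1% to 22.7% in Ribo-seq libraries. For MTF1 0 of 6 and 0 of 4 were not whole. Values of single metallothionein genes are uncertain in their division, and the sums over the 6 genes and over the 5 MT1 genes are given beside them.

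Promoters from 250 bases before to 50 bases after the start were at hand for 3 of the 7 genes, MT2A (chr16:56608334-56608633), MT1X (chr16:56682220-56682519) and MTF1 (chr1:37859543-37859842), all RefSeq on GRCh38.p14. They were searched on both strands for the core of the metal response element, TGCACNC or TGCGCNC. The MT2A promoter held 8 matches and that of MT1X 4, whereas 29.6% of the 35116 promoters in the table held at least 1, 0.601% held at least 4 and 0.0199% held at least 8. No match stood in the MTF1 window. Of other family loci in the table, MT1H had 8 and MT1B 3. For MT2A and MT1X the 4 matches nearest to the start on the upstream side are shown. A link between these matches and mRNA levels was not tested. The core is in capitals, read along the strand that holds it, with the position of its first base on the gene's strand relative to the start:
MT2A, base -139: ggcccagTGCGCGCggccggg
MT2A, base -88, opposite strand: cgctgccTGCACACgccccgc
MT2A, base -54: gggctttTGCACTCgtcccgg
MT2A, base -8: gccgcgcTGCACTCcaccacg
MT1X, base -150: cccgcggTGCGCCCggcgctg
MT1X, base -122: gggttgcTGCACCCggcccag
MT1X, base -78, opposite strand: tcgtcctTGCACCCgcccctg
MT1X, base -53: gggcctcTGCGCCCggccctc
These are matches of letters, and binding was not measured.

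The comparison of mRNA between the states asks how the stores of metal-binding transcripts differ once cells have stopped dividing. Transcripts of 4 of the 6 metallothionein genes, MT2A, MT1X, MT1G and MT1E, were higher in senescent cells, MT1M did not pass the threshold, and MT1F was too low to be tested. MTF1, their activator, did not pass it either. Over all 12787 genes tested, 73.6% passed the threshold (an adjusted p under 0.15) and 36.6% did so as higher and 37% as lower, so that the 4 of 5 tested metallothionein genes stand in a transcriptome of which most moved. The median log2 fold change of the 5 was 1.27, against -0.01 over all genes.

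MT2A, the most abundant metallothionein of these cells per length of coding sequence, had 557.1, 480.5 and 550.2 CPM in the 3 Pro libraries. It had 1353, 1224 and 1265 CPM in Sen. The groups lay far apart (529.2 ± 42.4 against 1280 ± 65.9 CPM, SD, n = 3). Groups that did not overlap, by any gap and in either direction, were found for 67.8% of all genes tested. The log2 fold change was 1.27 ± 0.08 (SE; adjusted p = 3.97e-12 by the quasi-likelihood test of edgeR), a 2.42-fold rise and a value above that of 95% of all genes tested. In bulk lysates such as these, more cells with a transcript and more of it per cell cannot be told apart.

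MT1X, a widely transcribed member of the MT1 group, had 19.6, 17.1 and 16.1 CPM in Pro and 52.8, 47.55 and 44.3 CPM in Sen. Again no senescent library came near a proliferating one, and the log2 fold change was 1.46 ± 0.10 (adjusted p = 2.41e-11). A gene on the same strand overlaps MT1X in the annotation, and whether its reads entered the value was not tested. MT1G, the gene on the minus strand, had 17.95, 15.7 and 13.85 CPM in Pro. In Sen it had 51.6, 37.8 and 35.85 CPM, with Sen 1 above the other two and all 3 above every Pro library (log2 fold change 1.40 ± 0.13, adjusted p = 3.07e-09).

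MT1E moved less. It had 65.25, 57.0 and 62.6 CPM in proliferating cells and 78.2, 87.2 and 72.7 CPM in senescent cells. The groups did not overlap but lay close (61.6 ± 4.22 against 79.4 ± 7.34 CPM), and the log2 fold change of 0.37 ± 0.08 (adjusted p = 0.000457) amounted to 1.29-fold. The log2 ratio of MT1E to MT2A reads was -3.10 ± 0.03 in Pro and -4.01 ± 0.18 in Sen (SD, n = 3), a difference of -0.91. An exact two-sided permutation test gave p = 0.1, the smallest that 3 against 3 libraries allow. With CDS reads alone the difference was -0.77, at the same p. For MT1G (0.11, exact p = 0.6) and MT1X (0.18, exact p = 0.3) the ratio to MT2A moved by less. The MT1G to MT2A ratio of footprints was higher by 1.30 (exact p = 0.3). Over the 7 ratios tested, on mRNA, its CDS and RPF, the lowest Benjamini-Hochberg adjusted p was 0.35 (exact tests), and none could pass 0.05 in a design of this size.

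MT1M and MT1F were rare. MT1M had 1.75, 1.62 and 0.899 CPM in Pro and 1.70, 1.89 and 1.34 CPM in Sen, on 9.67 to 25.8 reads a library. Its groups overlapped and its log2 fold change was 0.25 ± 0.28 (adjusted p = 0.449). MT1F had 0.285, 0.669 and 0.233 CPM in Pro against 0.248, 0.122 and 0.0457 CPM in Sen, no more than 7.83 reads in any library, where a floor of 3 counts lies at 0.212 to 0.380 CPM. It was left out of the test by the filter on low counts. With a filter of at least 1 read it came out lower in Sen (-1.65 ± 0.83, adjusted p = 0.0889), on 17.2 reads over the 6 libraries and with groups that overlapped, so that its direction is weakly determined at this depth.

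MTF1 had 23.7, 23.9 and 22.1 CPM in Pro and 27.3, 22.9 and 26.6 CPM in Sen. Sen 2 lay among the Pro libraries while Sen 1 and Sen 3 lay above them, and the log2 fold change was 0.13 ± 0.10 (adjusted p = 0.232). Without Sen 2 it was 0.21 (adjusted p = 0.0642), past the threshold. A gene on either strand overlaps MTF1, and their part in its reads was not tested.

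**Figure D1:**
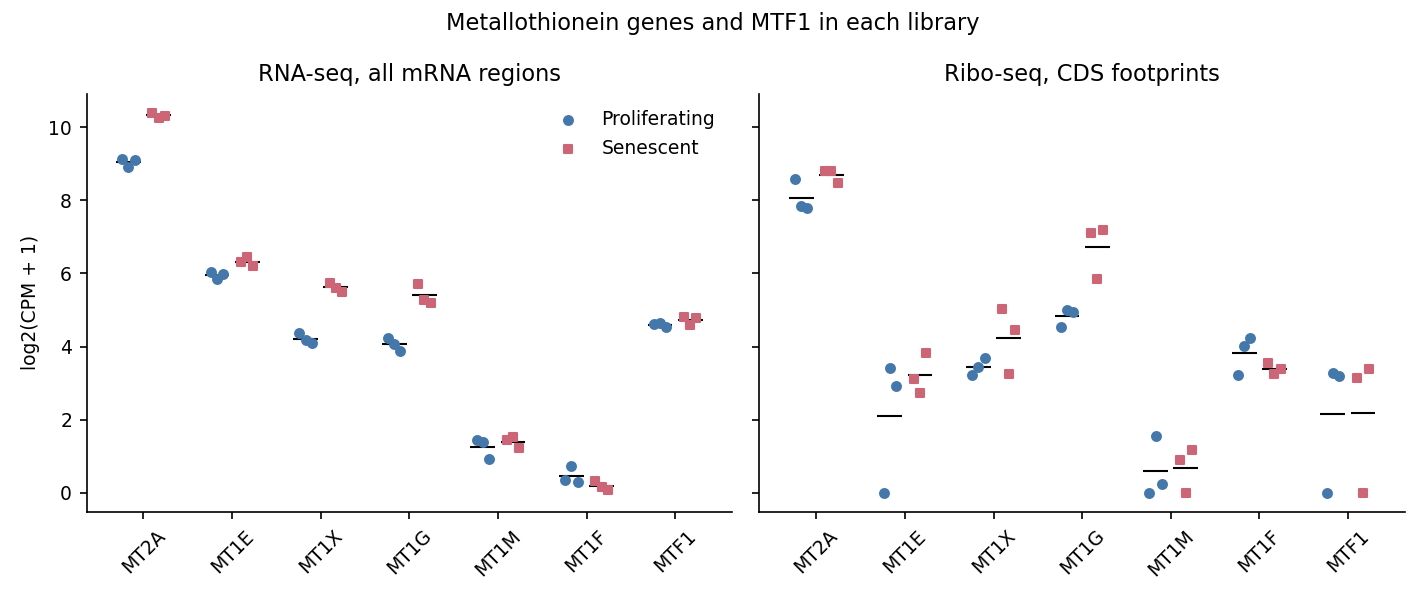
Levels of the 7 genes as log2(CPM + 1) in each library, mRNA on the left and RPF on the right. Blue circles are proliferating and red squares senescent libraries in the order 1 to 3, and black lines are means of these log values. MT2A, MT1X and MT1G mRNA separate widely, MT1E mRNA narrowly, and the RPF points of Pro 1 and Sen 2 (the left blue and the middle red point of each gene) rest on few reads.

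Summed over the 6 genes, which is indifferent to how reads were divided among these 6 though not between them and other loci of the family, mRNA was 661.9, 572.6 and 643.8 CPM in Pro. It was 1537, 1398 and 1419 CPM in Sen, every library above every Pro library (log2 fold change 1.21 ± 0.08, adjusted p = 7.77e-12). Metallothionein transcripts thus took 0.0591% to 0.0687% of mRNA reads in Pro and 0.135% to 0.147% in Sen. The 5 MT1 genes summed to 104.8, 92.1 and 93.6 CPM in Pro and to 184.6, 174.6 and 154.2 CPM in Sen, a smaller log2 fold change of 0.82 ± 0.08 (adjusted p = 7.93e-09). With the CDS reads of RNA-seq alone, the sum of the 5 was higher by 1.25 on the log2 scale and MT1E by 0.66, against 1.38 for the sum of the 6.

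The division of the reads over all mRNA regions among the members differed between the states. MT2A supplied 83.9% to 85.5% of the mRNA reads of the family in Pro and 87.5% to 89.1% in Sen. MT1E supplied 9.72% to 9.95% in Pro and 5.09% to 6.24% in Sen, so its share was lower in each senescent library although its level was higher. Over all mRNA regions MT1G (2.15% to 2.75%, then 2.53% to 3.36%) and MT1X (2.50% to 2.99%, then 3.12% to 3.44%) held less than MT1E. This order depended on the regions counted. In CDS reads of RNA-seq, MT1G held 9.03% to 10.65% in Pro and 9.01% to 10.96% in Sen, above MT1E in every library. MT1X held 7.08% to 7.91% and then 7.62% to 8.825%, and MT1E 7.37% to 7.86% and then 4.35% to 4.85%. MT2A held 73.1% to 75.2% and then 75.5% to 78.1% of these CDS reads, a narrow gap. Of the footprints MT2A held 90.7%, 77.15% and 76.85% in Pro 1 to 3 and 70.5%, 84.8% and 65.2% in Sen 1 to 3. Those shares overlapped, with the shallow Pro 1 and Sen 2 highest in their states.

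Where the RNA-seq reads fell within a transcript differed between the genes. For MT2A, 71.4% to 82.0% of reads in Pro and 72.1% to 77.1% in Sen were assigned to the 5′ UTR, which has 72 of the 401 bases of the annotated transcript. MT1E was alike (72.0% to 83.4% over all 6 libraries). The transcript taken for MT1E has a 5′ UTR of 377 bases, but among transcripts of equal coding length the longest was taken. MT1G was the opposite, with at least 99.3% of its reads in the CDS of every library. MT1X stood between (23.1% to 35.9% in the 5′ UTR), and MTF1, with a 3′ UTR of 5562 bases, had 60.7% to 67.1% of its reads there. A comparison of mRNA levels between these genes over all regions therefore compares different stretches of RNA, and the CDS, 186 bases in each of the 6, was used for the order of levels. Why reads gathered in the 5′ UTR of MT2A and MT1E was not tested.

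**Figure D2:**
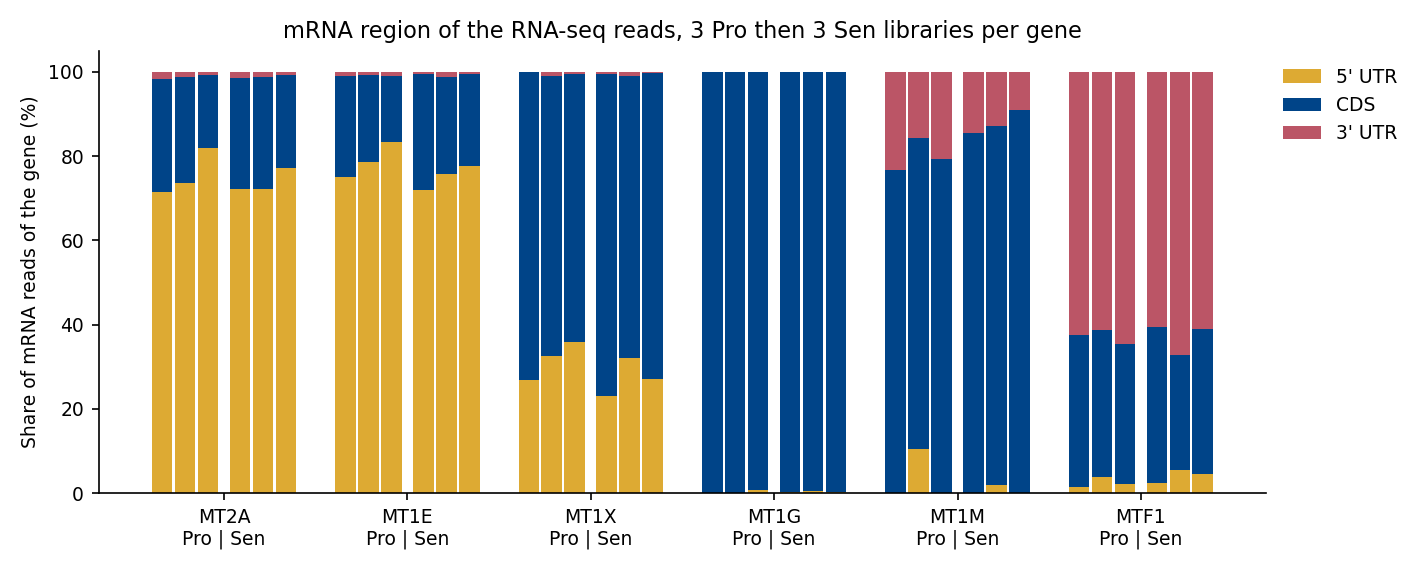
Share of each gene's RNA-seq reads (percent, vertical axis) that was assigned to the 5′ UTR, CDS and 3′ UTR, with 1 bar per library, 3 proliferating then 3 senescent. MT1F, with at most 7.83 reads a library, is left out. MT2A and MT1E are dominated by the 5′ UTR, MT1G by the CDS and MTF1 by the 3′ UTR, in both states.

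Per kilobase of coding sequence, RNA-seq CDS levels in Pro were 1018 ± 208 CPM per kilobase for MT2A (SD, n = 3), 132.6 ± 14.6 for MT1G, 104.1 ± 22.6 for MT1E, 100.5 ± 15.7 for MT1X, 9.06 ± 2.57 for MT1M, 5.56 ± 0.30 for MTF1 and 1.45 ± 0.97 for MT1F. The range of MT1E overlapped those of MT1G and MT1X, while the lowest MT1G library (118.9) lay just above the highest MT1X library (118.2). In Sen the order was MT2A (2719 ± 314.5), MT1G (353.2 ± 69.5), MT1X (295 ± 37.5), MT1E (163 ± 24.9), MT1M (12.1 ± 1.77), MTF1 (5.93 ± 1.31) and MT1F (1.17 ± 0.85). MT1G and MT1X overlapped, while MT1E lay below both in every library.

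Footprints per kilobase of coding sequence put the genes in another order below MT2A. In Pro, MT2A had 1489 ± 494 RPF CPM per kilobase and MT1G 148.5 ± 24.8, followed by MT1F (74.6 ± 26.5), MT1X (53.9 ± 9.35) and MT1E (29.1 ± 26.4), whose ranges overlap in part, and by MT1M (3.78 ± 5.68) and MTF1 (2.46 ± 2.14). In Sen, MT2A had 2231 ± 281.2 and MT1G 604.5 ± 259.1, then came MT1X (109 ± 61.6), MT1F (51.3 ± 5.61) and MT1E (47.6 ± 21.1), which overlap, and last MT1M (3.82 ± 3.47) and MTF1 (2.55 ± 2.24). In either state MT1M and MTF1 overlapped and had libraries at 0. These means weigh the shallow Pro 1 and Sen 2 like the deeper libraries. In each of the shallow ones MT1F and MT1X rest on 0.5 reads, and MT1E had 0 in Pro 1 and 0.333 in Sen 2. The order below MT1G is therefore weakly determined.

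The comparison of footprints asks whether ribosomes on these transcripts followed their level. Of the 6 metallothionein genes, MT2A and MT1G had enough reads for the test and both were higher in senescent cells. Of the 7521 genes tested, 54.2% passed the threshold and 27.6% did so as higher. Groups did not overlap for 32.8% of them.

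MT2A footprints came to 382.8, 228.2 and 219.6 CPM in Pro and to 445.9, 444.5 and 354.6 CPM in Sen. The groups overlapped, because the shallow library Pro 1, on 22.8 reads, lay above Sen 3. The log2 fold change was 0.80 ± 0.17 (adjusted p = 6.21e-05), and without both shallow lysates it was 0.87 ± 0.14 (adjusted p = 2.3e-05).

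MT1G footprints numbered 22.4, 30.9 and 29.6 CPM in Pro. In Sen they numbered 136.1, 57.0 and 144.2 CPM, of which the middle value, from shallow Sen 2, rests on 3.33 reads. The value of shallow Pro 1 rests on 1.33 reads. A floor of 3 counts lay at 50.3 CPM in Pro 1 and 51.3 CPM in Sen 2, so the gap between these 2 libraries is weakly determined. No senescent library overlapped a proliferating one, and the log2 fold change of 2.17 ± 0.22 (adjusted p = 2.68e-13) exceeded that of 99.1% of all genes tested. It was 2.20 ± 0.20 (adjusted p = 6.25e-09) without the shallow lysates.

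With Pro 1 and Sen 2 left out, 4 more of the 7 genes could be tested, and 53.8% of 9213 genes passed the threshold, 27.2% as higher and 26.5% as lower. MT1X footprints, 9.83 and 11.8 CPM in Pro 2 and Pro 3 against 31.5 and 20.8 CPM in Sen 1 and Sen 3, were then higher (1.33 ± 0.35, adjusted p = 0.00371). MT1F footprints, 15.3 and 17.9 CPM against 10.6 and 9.46 CPM, were lower (-0.76 ± 0.38, adjusted p = 0.114), the 1 member with a lower call. With all 6 libraries and a filter of at least 1 read, MT1X still passed (1.30, adjusted p = 0.00611) and MT1F did not (-0.77, adjusted p = 0.205). MT1E (9.59 and 6.64 CPM against 7.59 and 13.25 CPM, log2 fold change 0.23 ± 0.46, adjusted p = 0.716) and MTF1 (8.63 and 8.09 CPM against 7.81 and 9.46 CPM, 0.00 ± 0.44, adjusted p = 0.998) overlapped between the states and did not pass. MT1M had at most 1.33 reads in any Ribo-seq library.

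MT1F stood apart in 1 respect. Over all libraries it had 64 footprints in its CDS but 17.2 reads in mRNA regions, although RNA-seq was deeper by far. Its footprint share of the family was 1.99%, 5.19% and 6.27% in Pro and 1.68%, 1.63% and 1.74% in Sen, against at most 0.117% of the family's mRNA reads. MT1E was the reverse, with 37.2 footprints in its CDS on 4597 reads over all mRNA regions. Those regions are unlike, since 72.0% to 83.4% of its RNA-seq reads lay in the 5′ UTR. In CDS reads alone MT1E held 7.37% to 7.86% of the family's RNA-seq reads in Pro and 4.35% to 4.85% in Sen. Of the family's footprints it held 0% to 3.24% in Pro and 1.09% to 2.44% in Sen. Among the 157 windows of 30 bases in its coding sequence, 117 of MT1F (74.5%) and 157 of MT1E (100%) recur in another family transcript if 2 mismatches are allowed. Whether reads of one gene were assigned to another was not tested.

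**Figure D3:**
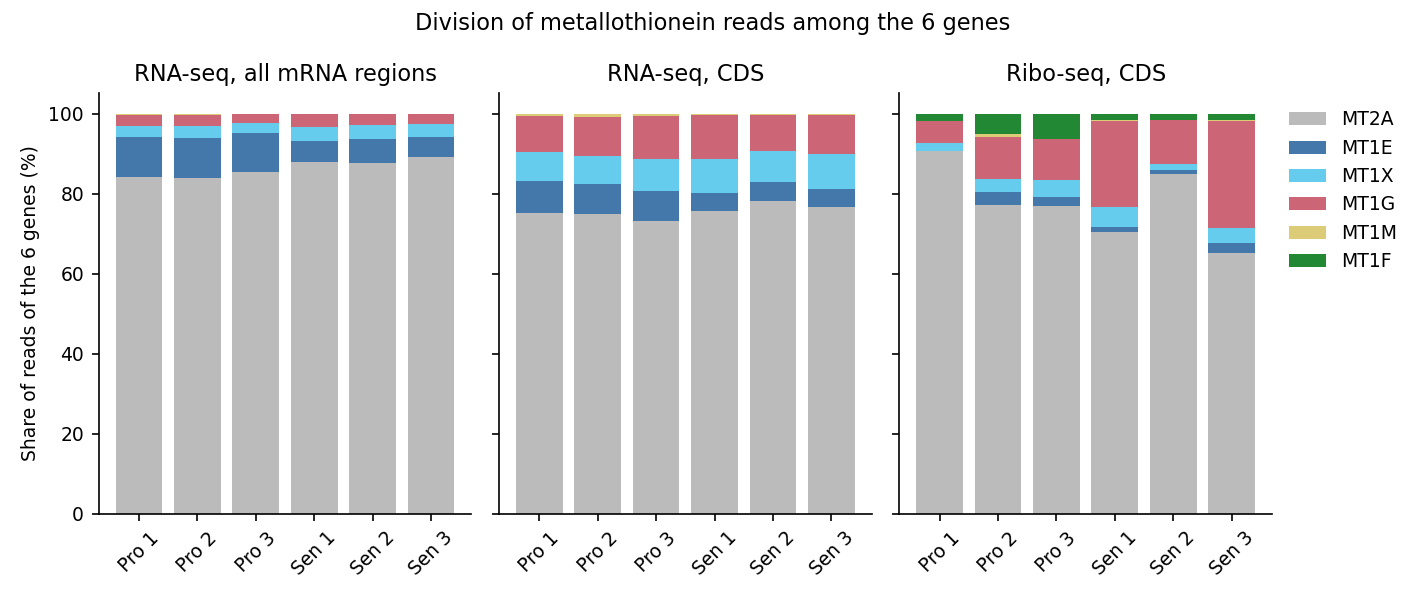
Division of the reads of the 6 metallothionein genes among them in each library (percent, stacked bars), for all mRNA regions of RNA-seq, the CDS of RNA-seq and the CDS of Ribo-seq. MT2A is the largest part throughout, MT1E is smaller in senescent mRNA, and MT1G takes more of the footprints in Sen 1 (21.5%) and Sen 3 (26.5%) than in any Pro library (5.30% to 10.5%).

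Summed over the 6 genes, footprints came to 422, 295.8 and 285.8 CPM in Pro and to 632.6, 524.3 and 543.6 CPM in Sen. All 3 senescent libraries lay above all proliferating ones (log2 fold change 0.95 ± 0.16, adjusted p = 1.66e-06). The 5 MT1 genes summed to 39.1, 67.6 and 66.15 CPM in Pro. In Sen they summed to 186.7, 79.8 and 189 CPM (1.47 ± 0.19, adjusted p = 6.92e-10), with 2.33 reads behind Pro 1 and 4.67 behind Sen 2. Over the 5 genes the footprints of MT1G were the greater part in Sen, 209.2 of 286.8 reads in Sen 1 and 76.2 of 99.8 in Sen 3.

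**Figure D4:**
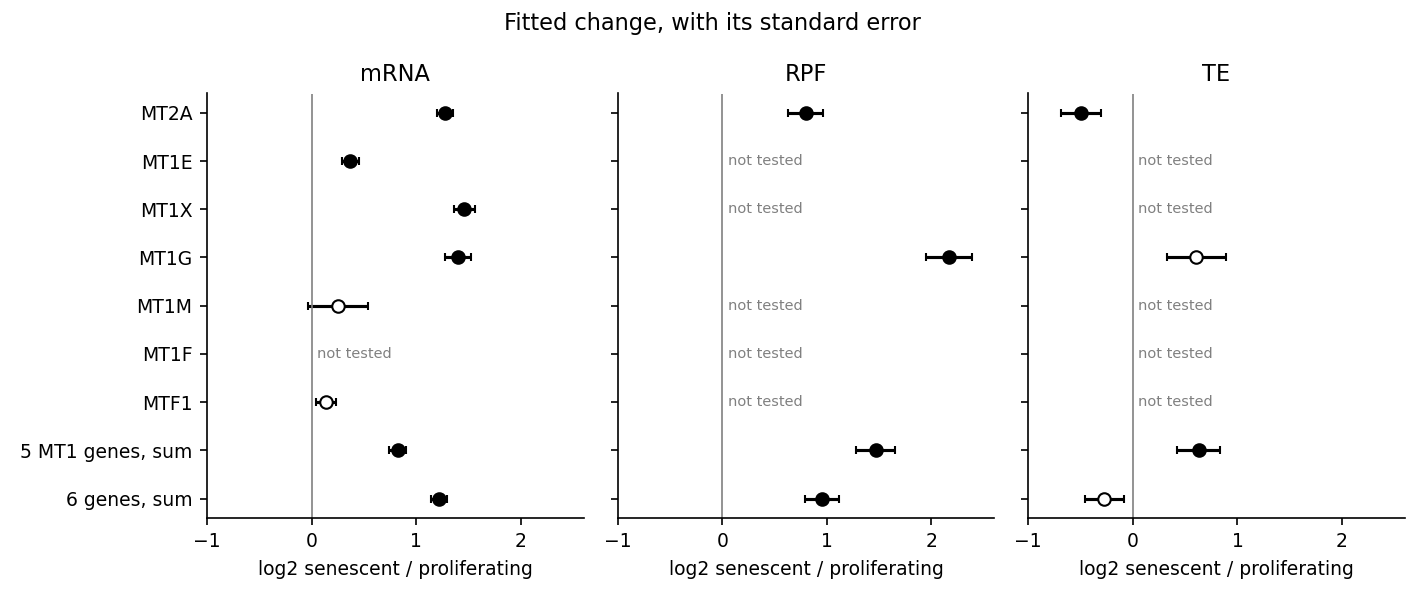
Fitted log2 fold changes, senescent over proliferating, with their standard errors, for mRNA, RPF and translational efficiency (TE). Filled points passed an adjusted p of 0.15 and open points did not. mRNA rose for 4 genes and both sums, RPF for MT2A, MT1G and both sums, and TE lay below 0 for MT2A and above 0 for the sum of the 5 MT1 genes.

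Translational efficiency (TE), the footprints of a gene relative to its mRNA, was compared in a single model over all 12 libraries, in which 10.4% of 7473 genes passed the threshold, 6.8% as higher and 3.57% as lower. Of the 2 metallothionein genes tested, MT2A was lower in senescent cells and MT1G did not pass. As the log2 ratio of a lysate, counted from the median gene of that lysate, MT2A TE was -0.61, -1.13 and -1.38 in Pro. It was -1.64, -1.48 and -1.89 in Sen, below every Pro lysate, and all 6 lysates lay below the median gene. The fitted difference was -0.49 ± 0.19 (adjusted p = 0.130), close to the threshold. The call was lost when Pro 2, Pro 3, Sen 1 or Sen 3 was left out (adjusted p from 0.258 to 0.528), and with DESeq2 (0.999) or limma voom (0.545) in place of edgeR.

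MT1G TE was 0.67, 0.94 and 1.05 in Pro and 1.37, 0.74 and 1.96 in Sen, above the median gene in every lysate with mRNA counted over all regions. The states overlapped through Sen 2, and the fitted difference of 0.61 ± 0.28 did not pass (adjusted p = 0.217). The sum of the 6 genes had -0.72, -1.01 and -1.22 in Pro and -1.32, -1.44 and -1.44 in Sen, with a fitted difference of -0.27 ± 0.18 (adjusted p = 0.442). The sum of the 5 MT1 genes had -1.24, -0.50 and -0.55 in Pro and -0.02, -1.03 and 0.24 in Sen. Its fitted difference of 0.63 ± 0.21 passed (adjusted p = 0.0761), but its states overlapped, and the call was lost on leaving out any of the 4 deeper lysates (adjusted p from 0.278 to 0.431).

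The TE values turned on which RNA-seq reads served as the base. When the mRNA was counted over the CDS alone, as the footprints are, MT2A TE was 0.66, 0.20 and 0.45 in Pro and -0.37, -0.27 and -0.39 in Sen, above the median gene in every proliferating and below it in every senescent lysate. The fitted difference grew to -0.72 ± 0.18 (adjusted p = 0.00665). The sum of the 6 genes then had 0.39, 0.16 and 0.38 in Pro and -0.27, -0.40 and -0.16 in Sen, a difference of -0.51 ± 0.18 that passed (adjusted p = 0.0896). The difference of the 5 MT1 genes shrank to 0.08 ± 0.22 (adjusted p = 0.883). MT1G TE was then 0.04, 0.28 and 0.35 in Pro and 0.70, 0.05 and 1.285 in Sen. It lay near the median gene in the shallow lysates, above 51.45% of genes in Pro 1 and 52.2% in Sen 2. Its fitted difference was 0.62 ± 0.27 (adjusted p = 0.183). The lower TE of MT2A was thus present with either base, whereas the 2 sums passed or did not pass according to the base.

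**Figure D5:**
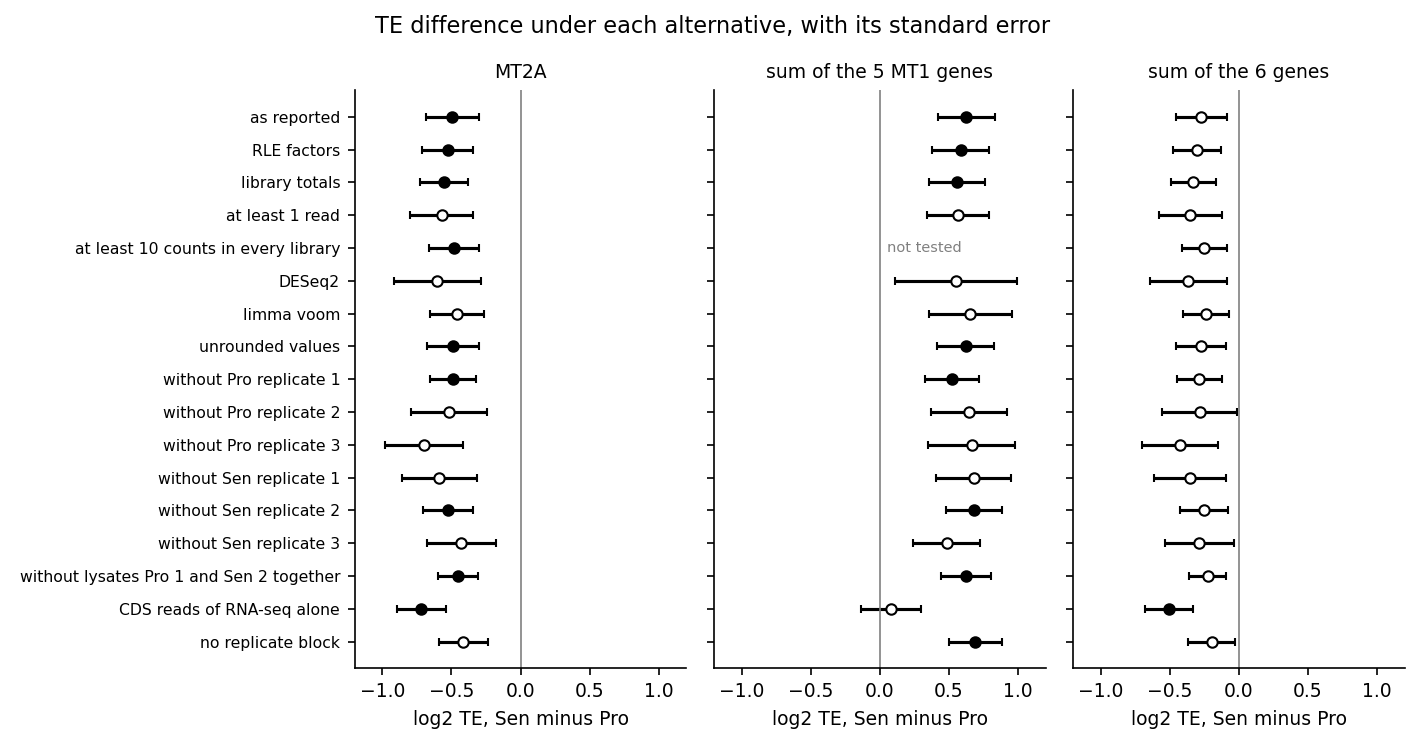
Fitted TE difference (log2, senescent minus proliferating) of MT2A, the 5 MT1 genes summed and all 6 genes summed, with standard errors, as reported and under each alternative. Filled points passed an adjusted p of 0.15. MT2A stays below 0 in all 17 fits and passed in 9 of them. The sum of the 5 MT1 genes stays above 0 in all 16 that could be fitted and is nearest to 0, at 0.08, with CDS reads of RNA-seq.

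Beside pseudogenes, MT1A, MT1H and MT3 were the other loci of the family with at least 10 mRNA reads over all libraries. MT1A mRNA had 1.02, 1.32 and 1.35 CPM in Pro and 3.35, 3.04 and 2.603 CPM in Sen, and rose by a log2 fold change of 1.27 ± 0.25 (adjusted p = 0.000113). MT1H (0.23 to 0.43 CPM in Pro, 0.75 to 0.92 CPM in Sen) and MT3, the member known from brain (0 to 0.17 CPM, then 0.53 to 0.82 CPM), were too low for the main test. Neither overlapped between the states, and nor did 67.8% of all genes tested. With a filter of at least 1 read, MT1H (1.24 ± 0.52, adjusted p = 0.0376) and MT3 (3.21 ± 0.79, adjusted p = 0.000486) came out higher, as did 5035 of 16094 genes. MT1H had at most 10.3 mRNA reads in a library and MT3 at most 10. None of the 3 had enough footprints for the main test.

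Of other known targets of MTF1, SLC30A1, the zinc exporter ZnT1 of the plasma membrane, had 31.5, 28.9 and 40.65 CPM of mRNA in Pro and 41.7, 44.96 and 54.3 CPM in Sen. All senescent libraries lay above all proliferating ones, and the log2 fold change was 0.48 ± 0.11 (adjusted p = 0.000796). Its footprints were higher by 0.49 ± 0.21 (adjusted p = 0.0575), a call that was lost without Pro 3 (0.439), Sen 1 (0.181) or Sen 3 (0.165) and with DESeq2 (0.700), and its groups overlapped there. SLC39A10, a zinc importer that MTF1 is known to hold down when zinc is plentiful, also rose in mRNA, from 33.3, 36.1 and 39.7 CPM to 46.6, 49.7 and 52.4 CPM (0.44 ± 0.09, adjusted p = 0.000112). Its RPF difference was 0.07 (adjusted p = 0.826). Neither gene had a TE difference past the threshold.

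In mRNA 36.6% of all genes tested passed as higher and 37% as lower. Zinc exporters (the ZnT family) were higher in mRNA in 6 of 6 tested of 10 listed, with a median log2 fold change of 0.30. SLC30A4, an exporter into vesicles, was highest (1.03 ± 0.11, adjusted p = 5.12e-08), and SLC30A7 (0.22, adjusted p = 0.0868) and SLC30A9 (0.14, adjusted p = 0.114) moved least. Under library totals, which shift the median of all genes to -0.11, 3 of the 6 remained past the threshold. Zinc importers (the ZIP family) were higher in 8 and lower in 1 of 11 tested. SLC39A8 (2.19 ± 0.29, adjusted p = 8.45e-07, from 0.68 to 2.99 CPM), which also carries cadmium and manganese, and SLC39A13 (0.88 ± 0.07, adjusted p = 6.02e-10), a zinc carrier of the Golgi, rose the most among those that passed. SLC39A3 rose by 0.26 (adjusted p = 0.0156) and SLC39A14, a carrier of zinc and iron, fell by 0.31 (adjusted p = 0.000707). In footprints 2 of 5 ZnT and 2 of 7 ZIP genes passed as higher, against 27.6% of all genes tested. SLC30A9 passed as lower (-0.57 ± 0.26, adjusted p = 0.0661). With library totals none of the 5 ZnT genes passed as higher in footprints and 2 passed as lower, and their median turned from 0.08 to -0.06.

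Genes of copper handling were higher in 8 and lower in 1 of 12 tested in mRNA (36.6% and 37% over all genes). In footprints 4 of 9 were higher, against 27.6% of all genes. SLC31A2, a low-affinity copper carrier, rose by 1.85 ± 0.13 (adjusted p = 5.82e-11) and ATP7B, the copper pump that is mutated in Wilson disease, by 0.78 ± 0.18 (adjusted p = 0.000789). CCS, the copper chaperone of superoxide dismutase, fell in mRNA by 0.19 (adjusted p = 0.129) and was higher in TE (1.01 ± 0.32, adjusted p = 0.0574). SOD1 itself rose by 0.19 (adjusted p = 0.0529).

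Genes that answer to metals and misfolded proteins, in contrast, did not move one way. In mRNA 4 of 10 were higher and 5 lower (36.6% and 37% over all genes), and the median log2 fold change of the 10 was -0.12. HMOX1, the haem oxygenase that cadmium and oxidants induce, fell in mRNA by 0.63 ± 0.09 (adjusted p = 3.67e-06) and HSPH1, a chaperone of the heat shock response, by 0.51 ± 0.07 (adjusted p = 1.83e-06). BAG3 and DNAJB1, co-chaperones of the same response, rose by 0.69 ± 0.07 each (adjusted p = 2.4e-08 and 3.39e-08). In footprints 5 were higher (27.6% over all genes) and 1 lower. In TE 5 of the 10 were higher, against 6.8% of all genes, HMOX1 among them (1.01 ± 0.32, adjusted p = 0.0607). HMOX1 footprints varied widely (63.3 ± 46.8 CPM in Pro and 95.8 ± 94.8 CPM in Sen). The paralogs HSPA1A and HSPA1B had nearly the same TE difference (0.88 and 0.87) and both count among the higher in TE and the lower in mRNA. Over all genes, TE calls fell from 775 to 28 with DESeq2 and 47 with limma voom.

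Glucocorticoid-responsive genes were likewise divided, with 5 higher and 3 lower of 9 tested in mRNA (36.6% and 37% over all genes). FKBP5, which encodes a co-chaperone of the glucocorticoid receptor, fell by 2.22 ± 0.10 (adjusted p = 5.69e-14) and KLF9 by 0.34 ± 0.10 (adjusted p = 0.00363). SGK1 (1.14 ± 0.08, adjusted p = 1.11e-10) and DUSP1 (0.88 ± 0.10, adjusted p = 9.64e-08) rose. The median over the 9 genes was 0.15 in mRNA, and with library totals 4 were higher and 4 lower. In footprints 4 of 7 tested were higher and 1 lower (27.6% and 26.6% over all genes), with a median of 0.66. With library totals 4 were higher and 2 lower in footprints. In TE 2 of the 7 were higher, against 6.8% of all genes, and 0 were lower.

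The genes whose mRNA followed the summed metallothioneins most closely over the 6 RNA-seq libraries, among 9415 genes of at least 10 CPM on average, were MGAT3 (Pearson r = 0.9998 of log2 CPM, 3.32 to 20.9 CPM from Pro to Sen), LRPAP1 (0.9996, 115.7 to 214.4 CPM), FAM174A (0.9993, 10.1 to 22.7 CPM), BACE1 (0.9992, 105.7 to 151.8 CPM) and INAFM2 (0.9987, 22.2 to 57.2 CPM). With 6 libraries in 2 states such values are common, and 1738 genes had r above 0.95. Among the members r was 0.991 for MT1X, 0.973 for MT1G, 0.90 for MT1E, 0.64 for MTF1, 0.325 for MT1M and -0.719 for MT1F.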

How the data were processed

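For each gene symbol the deposited tables gave reads per mRNA region and non-coding class. Deposited values were read as unscaled expected counts, since some held fractions of a read. Plain counts had been planned for, so regions were summed and then rounded. The submitters' processing notes name cutadapt 1.18, Bowtie 1.0.1, SAMtools 1.8 and DESeq2 1.22.2. Genome build, annotation, strand rule and multi-mapping were not given in the sources used here.

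edgeR 4.0.16 (R 4.3.3) fitted all genes by its quasi-likelihood method after filterByExpr, with TMM factors within each library type, two-sided, and called at a Benjamini-Hochberg adjusted p under 0.15, the study's false discovery rate. mRNA and RPF fits used 6 libraries each. The TE fit was the interaction of library type with state over 12 libraries, with the lysate as a block, since the protocol split each lysate (deviations of the mRNA and RPF library of a lysate from their group means correlated at -0.119 to 0.195). TE of a lysate added 0.5 to each count. Sums replaced their genes in the whole table. Per the labels the 3 replicates of a state were grown independently. No 2 libraries of a group were duplicates (chi-square 1.30 to 9.71 for each degree of freedom). Floors of 3 counts cover counting error only. SE was derived from the coefficient and its F statistic. The fits were also run on simulated data with known changes. Those were drawn with the same spread for both library types and with no difference between lysates. They therefore do not show how well the RPF and TE calls hold in libraries as uneven as these.

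Named genes were the 7 members, the sums, other family loci with at least 10 reads, SLC30A1 and SLC39A10, the 2 highest and 2 lowest called genes of each list by mRNA, and the 5 genes most like the sum. Of each list counts and medians are given and no set test was run. For 2 marker lists, the levels that check the labels were given in place of single genes. Members and lists were chosen with earlier results of these data known. For the coding sequences of the MT1 genes, the transcript whose coding length was nearest to that of MT2A was taken, and among equals the longest. For MT2A and MTF1 the canonical transcript was taken. Alternatives were RLE factors, library totals, 2 low-count filters, DESeq2 1.42.0, limma 3.58.1 (voom), unrounded values, other mRNA regions, lysates left out and the replicate number as a block.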

Additional observations from a re-analysis of the deposited data

Results flagged for a closer look

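MT1L, a metallothionein locus that the tables count among pseudogenes and that entered no comparison above, had reads in both library types, above the level of the proliferating libraries. In RNA-seq its pseudogene-class reads came to 8.78, 8.09 and 8.62 CPM in Pro and 31.1, 31.9 and 26.8 CPM in Sen, a senescent mean of 29.9 CPM (SD 2.74, n = 3) that no proliferating library approached. In Ribo-seq they came to 5.59, 14.1 and 7.03 CPM in Pro and 36.9, 22.8 and 33.1 CPM in Sen, with a senescent mean of 30.9 CPM (SD 7.30, n = 3), although 0.333 reads stood behind Pro 1 and 1.33 behind Sen 2. The difference was not tested in either type, and whether these reads belong to MT1L or to a member with the same bases was not tested. MT1JP, the other pseudogene of the family with at least 10 reads, overlapped between the states in both types (3.09 to 4.53 CPM in Pro and 4.41 to 6.49 CPM in Sen in RNA-seq). All loci outside the 6 genes held 2.04% to 2.95% of the family's RNA-seq reads and 3.76% to 7.12% of its footprints.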

How the results depend on the processing

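The mRNA calls of the 4 metallothionein genes and of both sums, and the RPF calls of MT2A, MT1G and both sums, kept direction and side of the threshold under every alternative that could be fitted, with log2 fold changes of 1.11 to 1.38 (mRNA, 6 genes), 0.72 to 1.25 (mRNA, 5 MT1 genes), 0.82 to 1.03 (RPF, 6 genes) and 1.28 to 1.52 (RPF, 5 MT1 genes). Leaving out 1 lysate at a time gave 4 members called in mRNA each time, 2 to 4 in RPF and 0 to 1 in TE. Members called in RPF numbered 1 with at least 10 counts in every library, where MT1G and the sum of the 5 MT1 genes were not testable in RPF or TE, and 4 without Pro 1 and Sen 2. Members called in TE numbered 0 with at least 1 read, with DESeq2 and with voom. The TE difference of the 5 MT1 genes did not pass with at least 1 read (0.57, adjusted p = 0.239), DESeq2 (0.55, 0.999), voom (0.66, 0.577) or CDS reads of RNA-seq (0.0805, 0.883), and ranged from 0.48 to 0.68 when 1 lysate was left out. That of the 6 genes passed with CDS reads of RNA-seq alone (-0.51, adjusted p = 0.0896), and ranged from -0.43 to -0.25 when 1 lysate was left out.

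MT2A TE did not pass in 8 of 16 alternatives (adjusted p 0.00665 to 0.999 over all), and MTF1 mRNA passed in 2 of 16 (up to 0.23). The RPF difference of SLC39A10 turned negative with library totals (-0.0651), and ran from -0.17 (without Pro 2) to 0.71 when 1 lysate was left out. Its TE ran from -0.44 to 0.31 (positive without Pro 3). SLC30A1 TE turned negative with DESeq2 (-0.0836) and with CDS reads (-0.00363), and ran from -0.27 (without Pro 3) to 0.35. The RPF call of SLC30A1 was lost in 6 of 15 alternatives, the replicate block included (adjusted p = 0.327). Over all genes, DESeq2 called 1164 in RPF and 28 in TE (edgeR, 4077 and 775), voom 47 in TE, at least 10 counts 605 and 266 (of 828 tested), and at least 1 read 430 in TE. The causes were not tested.

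Replicate numbers showed no clear pairing of the states in mRNA, and in RPF the values did not settle it. The deviations of same-numbered Pro and Sen libraries from their group means correlated at 0.0394, -0.136 and 0.157 in mRNA and 0.137, 0.106 and 0.0176 in RPF, and 2 of 6 mRNA and 4 of 6 RPF libraries correlated best with their own number. With the replicate number as a block, RPF calls over all genes fell from 4077 to 2327, and the sum of the 6 genes was higher by 1.21 in mRNA and 0.82 in RPF (adjusted p = 0.00102). Without the lysate block in TE, 1339 genes passed in place of 775, MT1G among them (0.82, adjusted p = 0.0546), while MT2A (-0.41, adjusted p = 0.151) did not.

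Depth limits the footprints: MT1E, MT1F, MT1M, MT1X and MTF1 had too few for the main RPF test. Library totals put the median of all genes at -0.11 in mRNA and -0.14 in RPF. They gave 1659 genes higher and 2546 lower in RPF (2078 and 1999 with TMM) and 404 higher and 457 lower in TE (508 and 267 with TMM), where RLE factors gave 443 and 360.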
